A study of Mus musculus with 6 samples.

Results

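Late numbers in the miRNA catalogue, miR-6896 to miR-7094, belong largely to short hairpins found at the ends of introns, and 100 rows with such names are described here in mouse testicular peritubular myoid cells. A row is the 5p or the 3p arm of a hairpin, the mature strand from its 5′ or 3′ side. The 100 rows were chosen by their measured tag counts: of the 349 rows with a name in the range, those with at least 30 tags summed over the 6 libraries. They come from 81 hairpin loci, and they are 100 of the 1573 known miRNA rows and 100 of the 759 known rows that reach the same sum. Their abundance is therefore part of the choice and is given as a description only.

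Peritubular myoid cells are the contractile cells around the seminiferous tubules, and endothelin-1 (ET1) is a peptide hormone that contracts smooth muscle. The cells were primary cells of C57BL/6J mice grown in DMEM/F12 with fetal bovine serum; neither genotype beyond the strain nor the number or age of the mice was given in the sources used here. Small RNA was sequenced from 3 libraries of untreated cells and 3 of cells given 50 nM ET1 for 5 min at culture temperature. Whether the 3 libraries of a group stem from separate cultures is not labelled, so p-values compare groups against a spread that may be purely technical.

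Most animal miRNAs are cut from a longer transcript by Drosha and then by Dicer. A mirtron bypasses the Drosha cut: the spliceosome excises a short intron, the lariat is opened, and the intron folds into the hairpin that Dicer cuts. In a tailed mirtron the splice site sets only one end of the hairpin, and the extra intron sequence on the other side is trimmed. A mirtron arm therefore carries splice-site letters, GU where the intron begins and AG where it ends.

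Hairpins that are whole introns show this most plainly, and 3 of the 5 with a hairpin entry among the miRNAs described here are printed from RefSeq (GRCm38.p6), 5′ to 3′, with the 5p and 3p arms in capitals. Each begins with the GU of the 5′ splice site and ends with the AG of the 3′ splice site.
miR-6944 hairpin: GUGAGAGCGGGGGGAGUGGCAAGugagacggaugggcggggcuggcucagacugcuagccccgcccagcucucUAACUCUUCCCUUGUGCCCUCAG
miR-7018 hairpin: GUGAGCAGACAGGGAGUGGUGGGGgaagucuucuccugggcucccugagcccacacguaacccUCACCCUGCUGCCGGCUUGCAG
miR-7068 hairpin: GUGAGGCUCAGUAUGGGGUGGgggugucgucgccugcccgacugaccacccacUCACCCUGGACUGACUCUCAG
The hairpin of miR-6944 is an intron of 96 bases in Dbn1, which encodes the actin-binding protein drebrin (chr13:55477681-55477776, minus strand). That of miR-7018 is an intron of 85 bases in Hspg2, the gene of the basement membrane proteoglycan perlecan (chr4:137538286-137538370, plus strand). That of miR-7068 is an intron of 74 bases in Cherp, the gene of a calcium homeostasis protein of the endoplasmic reticulum (chr8:72470016-72470089, minus strand). The other two hairpins of this kind are those of miR-6958, 73 bases in Dennd6b, and miR-7091, 79 bases in Dnase1l1. For miR-7070 no hairpin entry matched, but its 5p arm begins and its 3p arm ends an intron of 86 bases in Fbxw9, so its arms span a whole intron as well.

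Of the 10 arms with the most tags, 9 had a RefSeq entry, and their mature sequences follow with the seed, bases 2 to 8, in capitals. They are shown because the per-library values below turn on them.
miR-6933-5p: uGGCGGCAgucaggauaccugu
miR-7070-5p: gUGAGGGGagcugaggcagga
miR-6944-3p: uAACUCUUcccuugugcccucag
miR-7024-5p: uUGGGGGAuggguugcuuggc
miR-7009-5p: uUGGGGUCaggggaccagagcu
miR-6988-3p: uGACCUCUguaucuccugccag
miR-7018-3p: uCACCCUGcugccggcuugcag
miR-6900-3p: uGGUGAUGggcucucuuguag
miR-7037-5p: aAGGUGGCcacaggagaucauggu
The 4 3p arms all end in AG, whereas miR-7070-5p and the 5p arms of the whole introns begin with GU. No entry matched 10 of the 100 arms: miR-6905-5p, miR-6952-5p, miR-6952-3p, miR-6953-3p, miR-6954-5p, miR-6954-3p, miR-6956-3p, miR-6970-5p, miR-6970-3p and miR-7042-5p.

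Position in the gene was read from the GENCODE M21 annotation for the 73 hairpins with a RefSeq entry. An end counted as flush when it lay within 2 bases of a splice site. Where several annotated introns held a hairpin, the one with most flush ends was taken. Of the 73 hairpins, 63 were flush with the 3′ splice site alone, 5 filled an intron from end to end and 1, that of miR-6927 in Mllt6, was flush with the 5′ splice site alone. The hairpin of miR-7036b in Add1 was flush with neither, and those of miR-6904 (Parp1), miR-6914 (Ankrd52) and miR-7025 (Pdgfra) overlapped an exon. Thus 94.5% of the hairpins touched a splice site, against 4.72% of 636 hairpins of known miRNAs outside the range. Left out of the 636 were 4 hairpins of mirtrons with earlier catalogue numbers, of which 3 were flush at both ends. Among the 97 hairpins of the range without an arm at 30 tags the share was 94.8%. All 73 lay in protein-coding genes, 70 within an intron and the 3 just named over an exon. The introns had a median length of 272.5 bases, against 5013.5 for the introns of the other known hairpins, and those flush at the 3′ end alone ran from 77 to 36269 bases with a median of 337.

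The arms carried the same geometry. Of the 31 3p arms with a sequence, 25 ended on the last base of the intron and 28 within 2 bases of it. AG closed 27 of the 31, or 87.1%, against 6.10% of 246 3p arms of other known miRNAs with at least 30 tags. Their median content of C and U was 71.4%, against 54.5% in those other arms. Of the 59 5p arms, 7 began on the first base of the intron, all with GU, and the 5p arms ended a median of 40 bases before the 3′ splice site. Their median content of G was 47.6%, against 29.6% in 252 other 5p arms. Median GC was 60.9% in the 5p and 63.6% in the 3p arms, with 50% for both arms of the other known miRNAs.

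**Figure D1:**
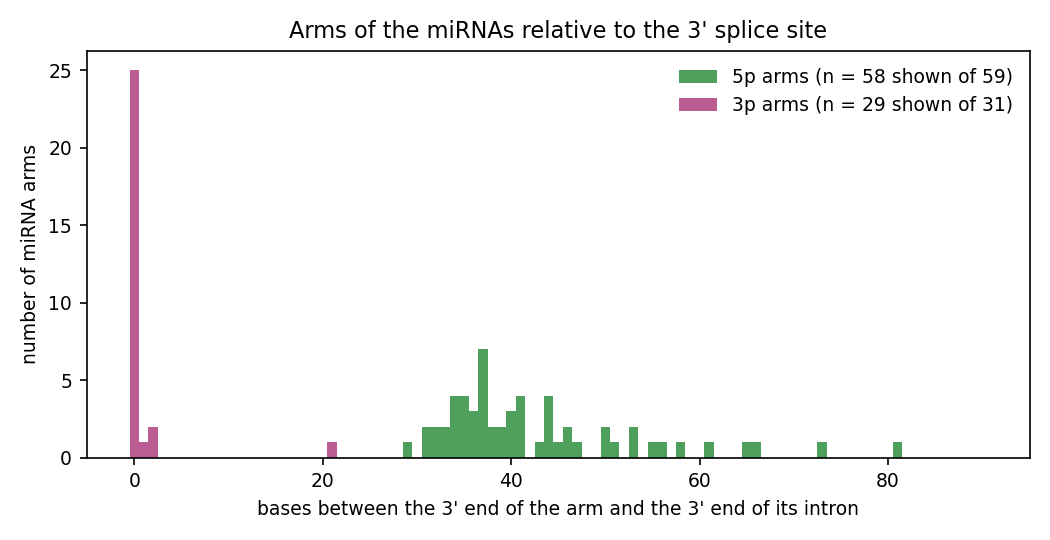
Number of miRNA arms (vertical axis) by the bases between the 3′ end of the arm and the 3′ end of its intron (horizontal axis), for 3p arms (purple) and 5p arms (green) with a RefSeq sequence, up to a distance of 90 bases. The 3p arms pile up at 0, where 25 of 31 lie, and the 5p arms lie around their median of 40.

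The seeds were diverse: the 90 arms with a sequence had 83 distinct seeds. GUGGGAG was shared by miR-6922-5p, miR-6993-5p and miR-7008-5p, and 5 further seeds were shared by a pair each. These were AGGGAGG (miR-6967-5p and miR-7016-5p), CCUGGGG (miR-6904-5p and miR-6914-5p), CUGAGCU (miR-6927-3p and miR-6945-3p), GGGCUGA (miR-6911-5p and miR-7028-5p) and UGAGGGG (miR-6927-5p and miR-7070-5p). Arms with a shared seed come from different host genes. Seeds of known rows outside the range with at least 30 tags and a sequence occurred in 7 arms. Of these, miR-7069-3p has that of miR-18a-3p, and miR-6958-5p that of the 3p arms of miR-30c-1 and miR-30c-2. Known rows with fewer tags were not compared.

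Total depth was 18127265 to 20895432 tags a library, with 4381927 to 8651018 of them on known miRNA rows. Known miRNA tags were 38.2% ± 7.75 of all tags in untreated cells and 24.3% ± 1.53 in ET1-treated cells (SD, n = 3), and rRNA tags were 4.55% ± 1.22 and 9.44% ± 2.05. The smooth muscle miRNAs miR-143-3p and miR-145a-5p were abundant in every library, at 10456 to 25167 and 2104 to 3128 tags per 1000000 known miRNA tags (CPM, scaled with the trimmed mean of M-values, TMM). The groups did not overlap for miR-143-3p, with mean CPM of 22500.5 in untreated and 11789 in ET1-treated cells (edgeR adjusted p of 0.101). For miR-145a-5p the means were 2618 and 2431 (edgeR adjusted p of 0.883). Of the striated muscle miRNAs, miR-133a-3p had 240.7 and 83.2, miR-1a-3p 6.09 and 2.55, and miR-206-3p 62.3 and 79.0 (edgeR adjusted p of 0.0725, 0.223 and 0.824). Of the miRNAs typical of other cells, endothelial miR-126a-3p fell from a mean CPM of 1602 to 131 and leukocyte miR-150-5p from 270.4 to 24.7 (edgeR adjusted p of 0.00019 and 0.000357). The other leukocyte marker, miR-223-3p, had 8.88 and 10.9 (edgeR adjusted p of 0.845). Sertoli miR-202-3p had 1103 and 1143, and miR-202-5p 109.3 and 124.4. Germ cell miR-449a-5p had 46.1 and 182.7 (edgeR adjusted p of 0.0861), with 69.3, 115.6 and 363.1 in ET1 libraries 1 to 3. The other germ cell marker, miR-34c-5p, had 38.1 and 74.2 (edgeR adjusted p of 0.366). Epithelial miR-200b-3p had 72.2 and 36.3, miR-200c-3p 23.8 and 17.4, and miR-141-3p 14.9 and 8.69 (edgeR adjusted p of 0.356, 0.668 and 0.513). None of the 15 marker miRNAs was at 0 in any library; their part in the values below was not tested, and fewer cells of a type cannot be told apart from less RNA per cell.

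The miRNAs of the range were scarce. Of the 349 rows, 55 had no tag in any library, 194 had at least 1 but under 30, and 110 had a tag in all 6 libraries. The 100 arms held 12094 tags in all, or 89.1% of the 13572 tags of the range, with 7664 on 64 5p arms and 4430 on 36 3p arms. The median arm had 68 tags over the 6 libraries, 32 arms had at least 100 and 33 had under 50. At the lower edge miR-7067-5p had 30 tags and miR-7012-3p 31, while miR-6942-5p, with 29, and miR-6936-5p, with 25, fell outside. In 94 arms every library had a tag, and the other 6 (miR-6905-5p, miR-6944-5p, miR-7031-5p, miR-7012-3p, miR-7074-5p and miR-7067-5p) lacked one in a single untreated library, either untreated 1 or untreated 2. There, a count of 0 allows a level of up to 0.370 or 0.347 per 1000000 known miRNA tags, the level of 3 tags. The 100 arms together were 0.0266% of the known miRNA tags in untreated and 0.0454% in ET1-treated cells.

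The 4 best-counted arms held 29.2% of these tags and the first 10 held 45.2%. The first, miR-6933-5p, lies in a 635-base intron of Pgs1, a gene of cardiolipin synthesis in mitochondria (chr11:118002279-118002300, plus strand). Its CPM was 24.5, 36.4 and 46.6 in untreated and 37.0, 45.2 and 31.4 in ET1-treated cells, so the ET1 values lay within the range of the untreated ones. Next, miR-7070-5p begins at the 5′ splice site of an intron of Fbxw9, an F-box protein gene (chr8:85062086-85062106, plus strand). It had 13.4, 14.9 and 22.3 against 17.7, 51.6 and 22.8, where ET1 library 2 stood above the other 5.

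The 3p arm miR-6944-3p had 7.19, 11.5 and 30.9 in untreated and 33.8, 28.9 and 19.7 in ET1-treated cells. Untreated library 3 lay among the ET1 libraries and the other untreated libraries below all of them. The same held for the other whole-intron 3p arm among the 10, miR-7018-3p, at 4.09, 4.39 and 11.1 against 12.8, 9.72 and 17.4. For miR-7024-5p, from a 102-base intron of Nelfa, a subunit of the negative elongation factor of RNA polymerase II, CPM was 15.5, 6.80 and 24.7 against 18.8, 24.3 and 29.1. Here too untreated library 3 reached the ET1 values.

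Groups did not overlap for miR-7009-5p, from a 112-base intron of Anxa5, the gene of the phospholipid-binding annexin A5 (chr3:36475498-36475519, minus strand). Its CPM was 6.06, 6.94 and 9.56 in untreated and 11.6, 23.7 and 19.1 in ET1-treated cells. By contrast miR-6988-3p, from an 82-base intron of Syvn1, an E3 ligase of the endoplasmic reticulum, had 13.7, 9.06 and 12.9 against 11.1, 2.96 and 10.7, with ET1 library 2 lowest. The steadiest of the 10, miR-6900-3p at the end of an intron of Ndufa10, a subunit of respiratory complex I, ranged only from 7.18 to 10.3 over all 6 libraries. The last of the 10 likewise overlapped between groups. miR-7037-5p, in Ints1 of the Integrator complex, had 5.50, 8.21 and 10.1 against 6.57, 4.86 and 6.84, and miR-6954-3p had 5.78, 4.39 and 8.39 against 4.13, 8.24 and 9.30.

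**Figure D2:**
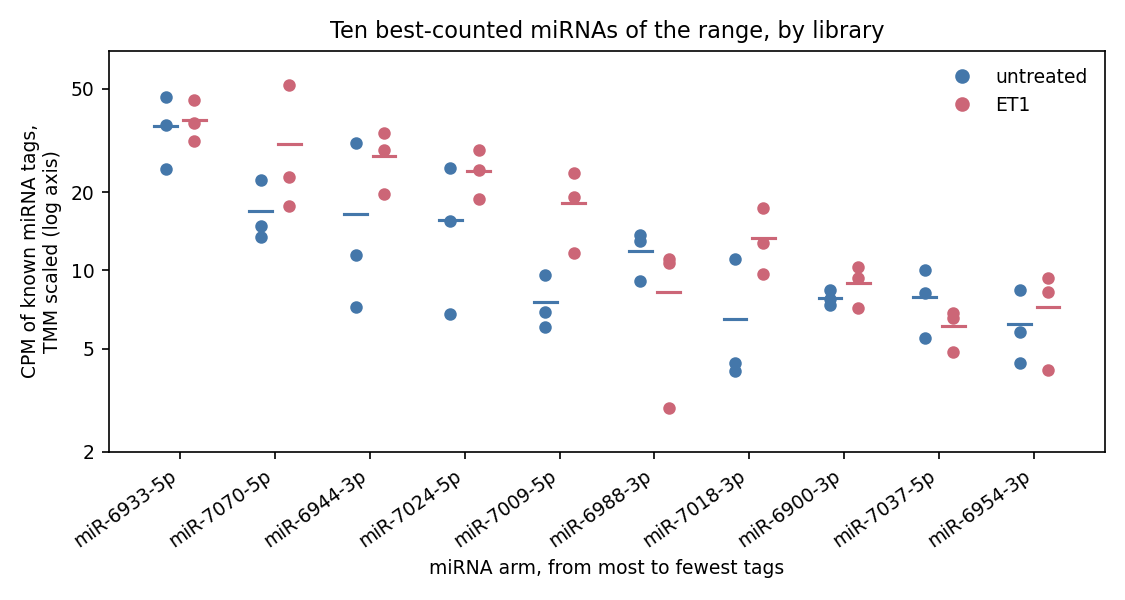
TMM-scaled CPM of known miRNA tags (log axis) in each library for the 10 arms with the most tags, untreated in blue and ET1-treated in red, with a short line at the mean of 3 libraries. The groups overlap in 9 of the 10, and in miR-7009-5p every ET1 library lies above every untreated library.

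Arm choice differed sharply between loci. Of the 81 loci, 75 had both arms listed; the 5p arm had more tags in 47 and the 3p arm in 28. The 3p arm held under 10% of the tags in 29 loci and over 90% in 13, and in 13 loci the weaker arm had no tag at all. The leading arm was the same in all 6 libraries in 52 loci. In 19 loci the 3p share lay between 25% and 75%. Loci flush at the 3′ splice site alone were led by the 5p arm in 40 cases and by the 3p arm in 17, and the 5 whole-intron hairpins by the 5p arm in 2 and the 3p arm in 3. miR-7070, whose arms span a whole intron, was led by the 5p arm, with 801 tags against 117.

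The best-counted locus was wholly on the 5p side: miR-6933 had 1299 5p tags and no 3p tag, for which the Wilson 95% interval of the 3p share reached 0.295%. For miR-7009, with 432 5p tags and no 3p tag, it reached 0.881%. These intervals cover counting error only. Both arms reached 30 tags in 19 loci, and their 3p shares over all libraries ran from 12.7% in miR-7070 and 34.6% in miR-7016 to 79.5% in miR-6954 and 90.7% in miR-6944. The other 15 lay between those. By tags summed over the 6 libraries, the 3p arm led in miR-6909 (52.3%), miR-6927 (52.9%), miR-6952 (52.7%), miR-6958 (58.0%), miR-6959 (58.0%), miR-7018 (68.8%), miR-7036b (78.0%), miR-7069 (55.3%) and miR-7074 (51.6%). It led in only 2 of the 6 libraries in miR-6909, miR-6927, miR-6952 and miR-7069 and in 3 in miR-6959. The authors' pooled counts for miR-6927 are led by the 5p arm, as given below. The 5p arm led in miR-6915 (38.7%), miR-6943 (42.7%), miR-6970 (43.1%), miR-7012 (44.9%), miR-7036a (43.6%) and miR-7085 (45.2%). In miR-6915, miR-6970 and miR-7036a it led in 3 of the 6 libraries. The Wilson 95% interval included an even split in miR-6909, miR-6927, miR-6952, miR-7069, miR-7074, miR-6970, miR-7012, miR-7036a and miR-7085. In miR-6943 the library values spread from 13.6% to 72.7% and in miR-6959 from 25.8% to 84.2%, whereas in miR-7018 they spread from 53.4% to 80%.

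ET1 was compared with untreated cells by the 3p share of each locus with at least 10 tags in every library, a ratio that does not depend on how libraries are scaled. With 3 libraries against 3 the two-sided exact permutation test cannot give a p below 0.1. Of 27 such loci, 2 had groups that did not overlap; over all 277 known loci tested, 14.1% did not overlap. In miR-7018 the 3p share was 61.7%, 53.4% and 58.9% in untreated and 80%, 76.7% and 75.6% in ET1-treated cells. The means were 58.0% ± 4.20 and 77.4% ± 2.31 (SD, n = 3), a difference of 19.4 percentage points with an exact permutation p of 0.1, the smallest possible, and 0.71 after Benjamini-Hochberg adjustment over the 277 loci. The 5p arm of the same hairpin had CPM of 2.54, 3.82 and 7.72 against 3.19, 2.96 and 5.62, so the groups overlapped for that arm. In miR-6993 the share was 9.74% ± 6.63 in untreated cells and 0% in every ET1 library, where the locus had only 10, 22 and 15 tags (exact permutation p of 0.1, adjusted 0.71). Summed over the 100 arms, 3p tags were 36.1%, 34.6% and 42.4% of the tags in untreated and 40.5%, 31.3% and 34.4% in ET1-treated cells, which overlapped.

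**Figure D3:**
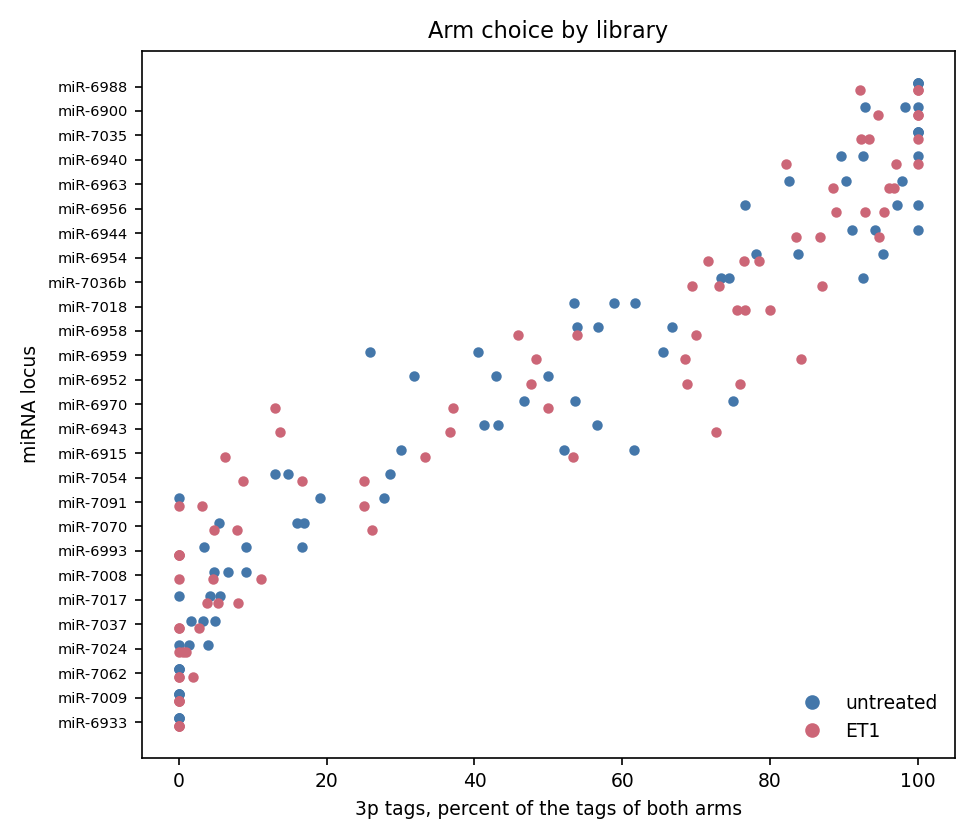
Share of 3p tags in the tags of both arms (horizontal axis, percent) in each library for the 27 loci with at least 10 tags in every library, sorted by the share over all libraries, untreated in blue and ET1-treated in red. Most loci sit near 0 or 100%, and in miR-7018 the 3 ET1 libraries lie to the right of the 3 untreated ones.

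Replicate spread was wide. The coefficient of variation (CV) of CPM within a group had a median of 53.6% over the 100 arms in untreated cells, from 4.85% in miR-6959-5p to 149% in miR-7074-5p. In ET1-treated cells the median was 46.3%, from 11.9% in miR-7036b-3p to 141% in miR-7012-5p. Over the 616 known rows that passed edgeR's default filter on low counts the medians were 33.2% and 34.9%. That filter left out 46 of the 100 arms, so the sets differ in abundance. Counting alone would give the 100 arms median CVs of 30.9% and 28.3%, and the measured CV was above its counting value in 81 and 82 arms. Spread was smaller in abundant arms: the 32 arms with at least 100 tags had median CVs of 33.6% and 40.1%, and the 33 arms under 50 tags had 67.2% and 58.3%.

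Untreated library 3 stood apart from the other untreated libraries. It was the highest of the 3 in 68 of the 100 arms, against 39.0% of the 616 known rows that passed the same filter. Those rows again left out 46 of the 100 arms. It also had the lowest share of known miRNA tags of the untreated libraries, 30.1% against 38.8% and 45.6%. An example is miR-7045-3p, from an intron of the chromatin remodeller gene Chd4, with 3, 3 and 32 tags in untreated and 5, 8 and 9 in ET1-treated cells.

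The summed tags of the 100 arms were 205, 192 and 400.1 per 1000000 known miRNA tags in untreated and 378, 508 and 476 in ET1-treated cells, with means of 266 ± 117 and 454 ± 67.7 (SD, n = 3). Untreated library 3 lay above the lowest ET1 library, so the groups overlapped. Per 1000000 tags of all kinds the sums were 79.6, 87.4 and 121 against 96.6, 115 and 118, with means of 95.9 ± 21.8 and 110 ± 11.4, and there untreated library 3 was the highest of all. The choice of denominator thus changed the ratio of the means. Within a library the values under each denominator differ only by its share of known miRNA tags, which differed between the groups. Why that share differed was not tested.

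**Figure D4:**
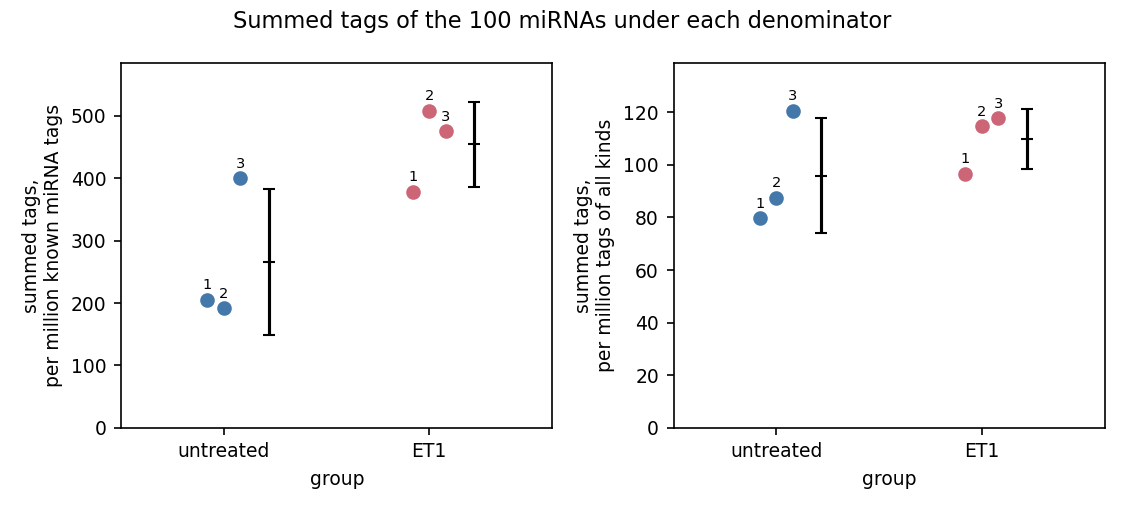
Summed tags of the 100 arms in each library, numbered by replicate, per 1000000 known miRNA tags (left) and per 1000000 tags of all kinds (right), with the mean ± SD of 3 libraries in black. On the left untreated 3 (400.1) lies among the ET1 libraries; on the right it is the highest of the 6.

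No arm of the 100 passed an adjusted p of 0.05 for ET1 against untreated cells. The test was edgeR's quasi-likelihood test on counts with TMM factors over known miRNA rows, adjusted over the 616 known rows that passed its default filter on low counts. It held 54 of the 100 arms, and 1.79% of the rows tested were called. Without adjustment 7 arms had p under 0.05, all higher with ET1, where 18.3% of all rows tested did so in either direction. Of these, miR-6987-5p, miR-7085-5p, miR-7062-5p, miR-7068-5p and miR-7042-5p would not have passed the filter on their untreated libraries. They entered through the ET1 libraries, where fewer tags suffice because known miRNA tags were fewer. DESeq2 on the same 54 arms called 1, miR-6987-5p, and 6.4% of the rows with an adjusted p. Estimated log2 fold changes were above 0 in 40 of the 54 and below 0 in 14, with a median of 0.35 (0.01 over all 616 rows). As arms can enter the 54 through their ET1 libraries alone, the filter partly sets this direction, and it is given as a description only.

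The filter kept out 46 arms, so the fit was repeated on all 759 known rows with at least 30 tags, which includes the 100. Again none was called (1.58% of all rows were); 10 had an unadjusted p under 0.05, all higher, against 9.88% of all rows in that direction. Here 68 arms were higher and 32 lower with a median log2 fold change of 0.41, against 0.08 over all rows. Leaving out untreated library 3 moved the median of the arms tested from 0.35 over 54 arms to 1.12 over 58 (0.18 over all rows). Still 0 arms were called, where 3.96% of all rows were. Taking the share of known miRNA tags as a covariate turned the median to −0.57 (0.04 over all rows), and fitting all small RNA rows together to −0.04 (0.12 over all rows). That share was 30.1% to 45.6% in untreated and 22.6% to 25.5% in ET1-treated cells. As the groups do not overlap in it, the covariate and the treatment can hardly be told apart.

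**Figure D5:**
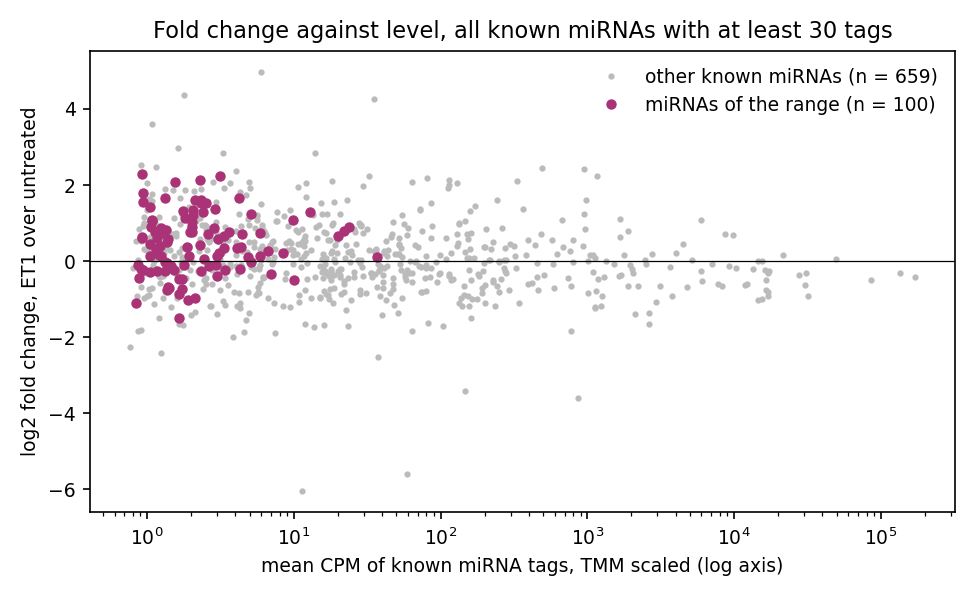
Log2 fold change of ET1 over untreated (vertical axis) against mean CPM of known miRNA tags (horizontal log axis) for the 759 known rows with at least 30 tags, the 100 arms of the range in purple and the other 659 in grey. The 100 arms lie at the low end of abundance, from 2.29 down to −1.51 on the log2 scale, and none passed the test.

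The arm with the highest fold change among the 54 was miR-6987-5p, in a 356-base intron of Pcnx3, a pecanex-family membrane protein gene (chr19:5679050-5679071, minus strand). It had 10, 5 and 7 tags in untreated and 18, 22 and 42 in ET1-treated cells, or CPM of 1.41, 0.708 and 1.17 against 3.38, 4.65 and 7.37. Every ET1 library lay above every untreated one, and the arm passed the filter through its ET1 libraries. The log2 fold change was 2.21 (SE 0.60) with an edgeR adjusted p of 0.079, which ranged from 0.0256 to 0.821 over the alternatives. It passed with library sizes alone in place of TMM (adjusted p of 0.0364), with no filter, with DESeq2 and without ET1 library 1. With library sizes alone, 6.17% of the rows tested were called higher, and the median of all rows rose by 0.37 on the log2 scale.

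Next came miR-7085-5p, in an intron of the glucose-6-phosphate transporter gene Slc37a4, with CPM of 1.41, 0.425 and 0.671 against 2.07, 5.92 and 3.16. Its log2 fold change was 2.11 (SE 0.70, edgeR adjusted p of 0.105). The partner arm miR-7085-3p had 0.564, 0.566 and 4.53 against 0.376, 2.75 and 1.93, with overlapping groups. For miR-7062-5p, from an 84-base intron of the metalloprotease gene Adam8, CPM was 1.97, 1.98 and 2.18 in untreated and 9.58, 5.49 and 4.04 in ET1-treated cells. The untreated libraries were nearly equal, and the log2 fold change was 1.63 (SE 0.53, edgeR adjusted p of 0.104, and 0.0454 with library sizes alone).

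The whole-intron arm miR-7068-5p had 1.69, 1.56 and 0.168 against 2.44, 4.44 and 3.69, a log2 fold change of 1.58 (SE 0.72, edgeR adjusted p of 0.259). Its untreated libraries held 12, 11 and 1 tags, whereas the authors' pooled untreated count was 53, against 55 with ET1. Their log2 ratio was 0.75. The estimate for miR-7068-5p thus rests on untreated counts that the authors' pooled counts do not match. The fifth, miR-6905-5p, had 0, 8 and 17 tags against 7, 36 and 12, so its estimate of 1.47 (SE 1.08, edgeR adjusted p of 0.505) rested on overlapping groups. That estimate was 0.39 without ET1 library 2 and 2.68 without untreated library 3. For miR-7009-5p of Anxa5 the log2 fold change was 1.27 (SE 0.46, edgeR adjusted p of 0.129).

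At the other end, miR-6992-5p, in an intron of the Golgi syntaxin gene Stx5a, had 12, 19 and 20 tags in untreated and 2, 4 and 14 in ET1-treated cells. Its log2 fold change was −1.04 (SE 0.74, edgeR adjusted p of 0.492), with −2.05 without ET1 library 3 and −0.63 without ET1 library 1. In miR-7002-5p, from an intron of Aqr, which encodes an intron-binding helicase of the spliceosome, tags were 16, 16 and 24 against 6, 9 and 7. The groups did not overlap, and the log2 fold change was −0.997 (SE 0.63, edgeR adjusted p of 0.408). The remaining 3 of the 5 lowest among the 54, miR-7045-3p, miR-6988-3p and miR-6959-5p, had estimates of −0.53, −0.52 and −0.44 with overlapping groups. In the fit on all 759 rows the lowest and the highest of the 100 arms were both ones that the filter had kept out. These were miR-6989-3p at −1.51 (SE 0.71) and miR-7067-5p at 2.29 (SE 0.96).

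After TMM scaling, 10 of the 100 arms had every ET1 library above every untreated one, where 12.3% of the 759 rows did, and 2 had every ET1 library below, where 10.1% did. Besides those given above, the higher ones were miR-7017-5p, miR-6997-5p, miR-7034-5p, miR-7046-5p and miR-7067-5p, and the other lower one was miR-6989-3p, named after their values were seen. In miR-6989-3p, from an intron of the kinase gene Map4k2, tags were 20, 10 and 19 against 6, 4 and 3. Scaled to library size alone 15 arms lay higher and 0 lower, where 19.6% and 4.87% of the 759 rows did. Scaled to tags of all kinds the counts were 10 and 8, where 8.3% and 14.6% of the rows did.

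In the authors' deposited table, which compares counts pooled over the libraries of a group, 67 of the 100 arms had a q-value under 0.05, 62 with a log2 ratio above 0 and 5 below. Over all 1147 known rows with a ratio, 48% in the authors' deposited table were called with a ratio above 0. For miR-6933-5p the authors' deposited table gives a log2 ratio of 0.43 with a q-value of 3.58e-08, from 709 and 590 pooled tags. The 3 untreated and 3 ET1 libraries of that arm overlapped, as given above, and pooled counts carry no term for the spread between libraries.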

How the data were processed

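Small RNA libraries of 3 samples of untreated and 3 of ET1-treated mouse peritubular myoid cells were grouped by their labels. Per the file headers, the authors deposited tag counts per small RNA row, and beside them values headed TPM that from their size are RPM over all tags, with a count of 0 written as 0.001; the RPM were not tested. The authors' deposited comparison holds pooled counts, a log2 ratio, p-values and q-values, made with settings that are not given in the sources used here. Per the submitters' processing notes, Bowtie2 and mm10 are the named tool and build; the treatment of mismatches and of tags that match several loci was not given in the sources used here, so tags of near-identical arms (miR-7036a and miR-7036b, the 2 copies of the miR-6967 hairpin) may have been shared. The authors' pooled counts equalled the sums of the library counts in 97 of the 100 arms. They differed for miR-6927-5p, miR-6927-3p and miR-7068-5p. Pooled untreated and ET1 tags were 43 and 31 for miR-6927-5p, with 6, 1 and 12 against 5, 2 and 6 by library. For miR-6927-3p they were 4 and 11, with 2, 11 and 2 against 2, 13 and 6. For miR-7068-5p they were 53 and 55, with 12, 11 and 1 against 13, 21 and 21. The library counts were used here.

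Known miRNA rows were fitted with edgeR 4.0.16 (R 4.3.3; quasi-likelihood, TMM, default filter, Benjamini-Hochberg over all 616 rows), DESeq2 1.42.0 and limma 3.58.1 as alternatives. Scripts were tested on simulated data. Arm shares were compared with exact permutation tests over 20 splits (scipy 1.17.1). RefSeq sequences (GRCm38.p6) were matched by miRNA name, for 90 of the 100 arms, and introns were taken from GENCODE M21. Arms were named by rule: the 10 with the most tags, the 5 highest and 5 lowest fold changes, loci with both arms at 30 tags, and the rows next to the count minimum. The members and lists were chosen with earlier results of these data known. Depth of 4381927 to 8651018 known miRNA tags puts 3 tags at 0.347 to 0.685 per 1000000.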

Additional observations from a re-analysis of the deposited data

How the results depend on the processing

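The number of arms called was 0 with DESeq2's size factors (1.79% of all rows were called), with limma-voom (2.27%) and with the GC correction (0.81%). It was also 0 at 10 CPM in 3 libraries (2.48%), where only 7 of the arms were tested. With all small RNA rows fitted together and with the covariate it was 0 as well, but there no row at all was called. The number was 2 with library sizes alone (6.66% of all rows were called), 1 with no filter (2.70%) and 1 with DESeq2 (6.40%). It was 0 to 1 when a library was left out, the 1 being without ET1 library 1 (4.43%). The other fits with a library left out called 0.30% to 3.96% of all rows. Among alternatives chosen after seeing the data, the sum of at least 30 with library sizes alone called 2 (5.93%) and with scaling to all tags 0 (1.58%). The median log2 fold change ran from 0.27 to 1.12 over the left-out libraries and was −0.57 with the share of known miRNA tags as covariate, −0.04 with all rows fitted together; the cause was not tested. Of 361 fold changes over 19 named arms and 20 settings, 337 kept direction and side of the threshold, 7 newly passed it and 17 changed sign. Sign changes were −0.36 (all rows), −0.33 (covariate), −0.11 (GC correction), −0.18 (all tags) and a range of −0.12 to 0.34 over left-out libraries for miR-6933-5p; −0.40 and −0.81 (covariate) for miR-6944-3p and miR-7024-5p; −0.29 (all rows) and −0.054 (all tags) for miR-6900-3p; −0.18 (all rows), −0.65 (covariate) and −0.016 (all tags) for miR-6954-3p; 0.50 (limma-voom) for miR-7045-3p; and −0.28 (covariate) for miR-6905-5p. Summed tags were 95.9 and 110 per 1000000 tags of all kinds, and 319 per 1000000 known tags in ET1-treated cells for arms with at least 100 tags. Without the miR-6933 locus the untreated 3p share was 43.0%. Median CVs were 67.2% and 57.7% at a sum of at least 10, 33.6% and 40.1% at 100, and 32.7% to 46.3% (untreated) and 35.8% to 45.7% (ET1) over left-out libraries. Loci with non-overlapping 3p shares numbered 1 of 14 at 20 tags (15.2% of all loci), 5 of 47 at 5 tags (13.5%), and 3 to 10 of 27 to 29 with a library left out (18.3% to 27.7%), 10 of 28 being without ET1 library 1; 3 libraries against 2 separate more easily by construction.

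Same-numbered libraries of the groups had correlated deviations of 0.28, 0.06 and 0.25, so the numbers were not taken as pairs, although each library correlated best with its own number, a hint from the data and not the design. With the replicate block 0 arms were called (3.41% of all rows were) and the median log2 fold change was 0.49. In that fit miR-7045-3p had 0.15. With the block and GC correction 0 arms were called (5.84% of all rows were), and miR-6933-5p had −0.11. Depth limits the 33 arms under 50 tags, where counting alone gives CVs of 39.7% and 37.8%.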

Other observations

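Mirtrons of earlier catalogue numbers, miR-702, miR-877, miR-1224, miR-1981 and miR-3102, were far more abundant in the same libraries: their 9 rows held 382687 tags against 12094 in the 100 arms above, of which miR-1981-5p had 341729. None of the 8 rows tested was called by edgeR, 6 were estimated higher with ET1, and the median log2 fold change was 0.61. For miR-877-5p CPM was 507, 504 and 716 in untreated and 751, 1592 and 1655 in ET1-treated cells, so the groups did not overlap, with a log2 fold change of 1.21 (SE 0.39) and an edgeR adjusted p of 0.104. Its 3p arm had 23.8, 23.8 and 79.4 against 58.6, 77.8 and 50.5, where untreated library 3 was again highest. For miR-1224-3p no tag was counted in any library, which allows a level of up to 0.347 to 0.685 per 1000000 known miRNA tags, by library.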
